A study of Drosophila melanogaster with 8 samples.

Results

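The trh list held all 3210 regions at which the GFP-tagged transcription factor Ribbon (Rib) was enriched over input in trh-GAL4 embryos, and every region of the list was kept, out of 22108 regions in the 3 deposited lists that carry values. The assay was ChIP-seq, the sequencing of DNA that an antibody pulls down with its protein, on whole Drosophila melanogaster embryos with a goat polyclonal antibody to GFP. The trh group comprised 2 immunoprecipitated samples, replicates 1 and 2, and 1 joint input without antibody, and the list was made jointly from the 2 immunoprecipitations, with peaks kept at an irreproducible discovery rate of 0.1, a rank-based filter on agreement between replicates. All 3 samples are titled trh-GAL4::UAS-GFP and carry that genotype label, but a rib-GFP fusion is named in the protocol and in the description of the list. The latter reading is used here, and had the embryos carried GFP alone, no value below would measure Rib. Embryos were collected at 25 °C and cross-linked in 1.8% formaldehyde, and their stage is 11 to 15 in one label and 11 to 16 in another. The btl-GAL4 embryos of the same series, which express the same fusion through another driver, gave 1 list of 8693 regions from replicates 1 and 2 (the btl list) and 1 of 10205 regions from replicate 3, and they are used only for values set side by side.

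Rib carries a BTB domain, through which proteins pair, and it is required for the shaping of the embryonic salivary gland and trachea. The GAL4-UAS system pairs a driver, which supplies the yeast activator GAL4 to a set of cells, with a transgene that GAL4 turns on through its UAS sequence. The trh driver is named after trachealess, a bHLH-PAS transcription factor of tracheal and salivary duct cells. The fusion is therefore made by a transgene rather than by the rib gene itself, and the chromatin was that of all cells of the embryo. A weak region may come from few cells with strong binding or from many cells with weak binding, and these cannot be told apart. The 8 samples of the series are driver immunoprecipitations and inputs, and none is labelled as a control immunoprecipitation from embryos lacking the fusion. Signal that does not depend on the fusion could therefore not be told apart.

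The regions were narrow, from 168 to 1999 bp with a median of 389 bp, and they covered 1.39 Mb. Each region carries 2 of the authors' own measures of strength, a fold enrichment over background at the summit, on a linear scale, and a -log10 q-value. These describe and rank regions within the list. They have no replicate error, since the list gives no value for single samples, and the read depth behind them is unknown. Fold enrichment ran from 1.23 to 6.59 with a median of 2.16, so the list was made mostly of modest enrichments. Only 39 regions reached a fold of 4 and 329 a fold of 3, while 1167 lay under 2. The -log10 q ran from 0.894 to 78.9 with a median of 9.95, and 3 regions lay below 1.3. Over the 3210 regions, the rank correlation of the 2 measures was 0.561 (Spearman's rho, a description across regions of the same libraries). The 2 orders therefore put different loci at the top. Of the 15 regions with the highest fold, 9 were also among the 15 with the highest -log10 q, and of the top 321 by each measure 159 (49.5%) were shared. Width went with the measures unequally, with a rho of 0.312 against -log10 q and 0.0691 against fold.

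The strongest loci were spread over genes of varied function, and they are given with positions on the dm6 build. The highest fold, 6.59, was found 56 bp beyond an end of CG11349 (3L:4474940-4475284), an uncharacterised gene of 2028 bp. The second, a fold of 5.84 with the highest -log10 q of the list, 78.9, lay deep inside shn, 26726 bp from its nearer end (2R:11185488-11186005). Schnurri, the product of shn, is a zinc-finger transcription factor of the Dpp pathway. It was followed by a region 3855 bp from CG33687, at a fold of 5.78, and by an intragenic region of tun, at 5.61, where a further gene span also holds the summit. SNF4Agamma, the gamma subunit of the energy sensor AMP-activated kinase, held a region at a fold of 5.58 inside its span and another at 3.77, and both were among the 15 with the highest -log10 q (54.4 and 43.0). A region of bru2, an RNA-binding protein gene, reached 5.46.

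The gene gce encodes a bHLH-PAS receptor for juvenile hormone, of the same protein family as Trh. Its main region had a fold of 5.43 and lay 8728 bp inside the gene. A further gce region had a fold of 4.04, and a summit 411 bp from an end of the gene had a fold of 2.69, so that 5 summits lay in its span or within 500 bp of it. The wech region, at a fold of 5.08, had the next highest -log10 q of all, 67.0, and lay 127 bp outside the gene. Wech is a TRIM-NHL protein that links integrins to the cytoskeleton. Msp300, a giant nesprin that ties nuclei to actin, and CG11899 followed at 5.05 and 5.03. The remaining members of the top 15 by fold were dnc (4.61), which encodes a cAMP phosphodiesterase, the cell-surface protein gene caps (4.59), elB (4.54), the leucokinin receptor gene Lkr (4.44) and the forkhead gene CHES-1-like (4.44). Of these, the dnc summit lay between genes, 14020 bp outside dnc, its nearest gene. The elB gene encodes a zinc-finger protein known from the development of tracheal branches.

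Ranking by -log10 q brought in 6 regions that the fold left lower. Pde1c, a cyclic nucleotide phosphodiesterase gene, had rank 4 by -log10 q (57.4) and rank 269 by fold (3.07). The region nearest to the junctophilin gene jp was next at 57.1, with a fold of 3.12. Its summit lay between genes, 830 bp outside jp. The TSC22-family gene bun had 48.0 and a fold of 4.25, and REPTOR, a bZIP factor that acts downstream of the growth kinase TORC1, had 43.3 and 3.34. COX7AL2, which encodes a subunit of cytochrome c oxidase, differed most between the orders among these, with a -log10 q of 42.1 (rank 14) at a fold of 2.41 (rank 1028). In each ordering 9 of the 15 regions lay inside genes, 4 at gene ends and 2 between genes.

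**Figure D1:**
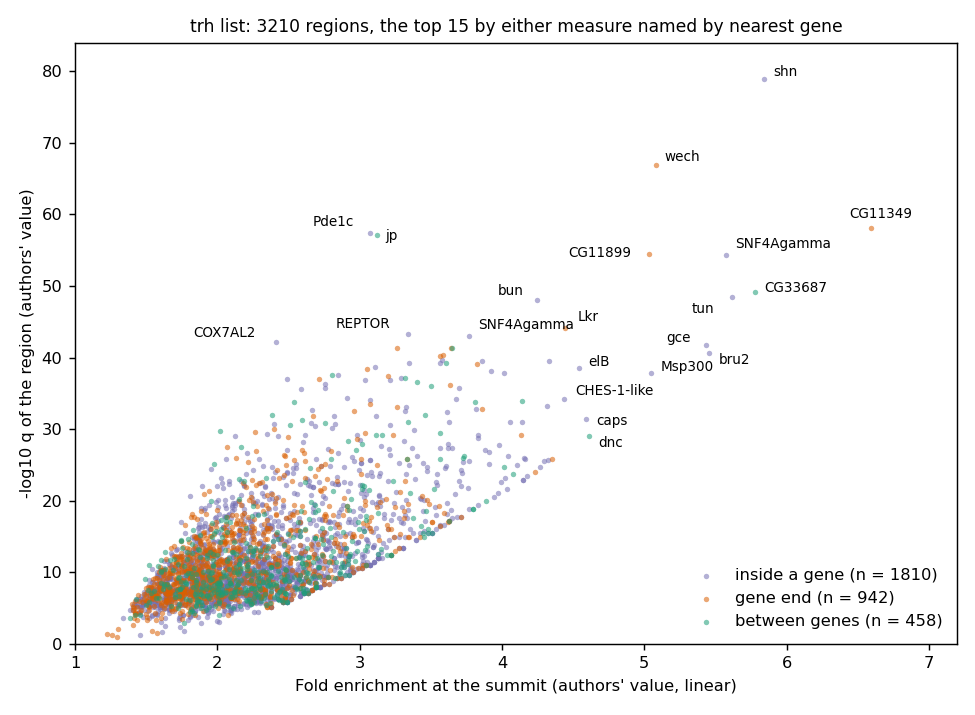
Fold enrichment at the summit (x axis, linear) against -log10 q (y axis) for each of the 3210 regions of the trh list, coloured by the place of the summit, with the 15 highest by either measure named by nearest gene. The shn region has the highest -log10 q (78.9) and the CG11349 region the highest fold (6.59), while Pde1c, jp and COX7AL2 stand high in -log10 q at folds of 3.07, 3.12 and 2.41.

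Most summits lay inside genes and away from their ends. A summit was placed at a gene end when it was within 500 bp of either end of a protein-coding gene, since the gene table used has no strand and the start could not be told from the end. Of the 3210 summits, 1810 (56.4%, Wilson 95% interval 54.7 to 58.1) lay inside a gene beyond that window, 942 (29.3%, 27.8 to 30.9) at a gene end and 458 (14.3%, 13.1 to 15.5) between genes. These intervals cover counting error only. The length of sequence in each class was not computed, so the shares show no preference for any place. Gene-end regions had the lowest median fold, 2.03 (quartiles 1.79 and 2.39), against 2.2 inside genes (1.9 and 2.58) and 2.25 between genes (1.96 and 2.64), and these ranges overlap widely. By -log10 q the order was otherwise, with the highest median, 10.2, at gene ends and 9.86 inside genes. Gene-end regions were also the narrowest, with a median of 355.5 bp against 417 bp inside genes. Outside all spans, 858 summits lay at a median of 580 bp from the nearest gene, and 85 of them were farther than 10000 bp away.

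The gene-end summits reached 1159 of the 13922 protein-coding genes on the 6 chromosome arms, which is 8.32% and the overall background for the protein-coding groups below. With the whole span counted, together with 500 bp on either side, the number was 1932 genes, or 13.9%. Of the 942 gene-end summits, 258 (27.4%) stood at the ends of 2 or more genes, so the gene they belong to is uncertain. The shares rose with gene length. Gene-end shares were 3.19%, 6.0%, 8.51% and 15.6% over 4 equal groups of genes from the shortest to the longest, and span shares were 3.19%, 6.23%, 10.4% and 35.7%. Of the 1012 genes of at least 20000 bp, 52.2% held a summit in the span. A count from a list of long or short genes, at gene ends or in the span, is therefore best read beside the share among genes of like length. The 6 arms were similar in gene-end share, from 7.19% on 2L to 11.2% on chromosome 4. Chromosome 4 held 27 regions with a median fold of 2.40, and 25.0% of its 80 genes had a summit in the span.

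A small number of regulatory genes held many sites. The summits had 1812 nearest genes, of which 1202 had 1 summit each, while the 96 genes with 5 or more held 725 summits (22.6%). The leader was Eip75B, an ecdysone-induced nuclear receptor gene, with 30 summits nearest to it and 28 in its span, or 2.44 per 10 kb. The ftz-f1 gene, another nuclear receptor gene, had 18 in its span (3.48 per 10 kb), Eip74EF, which encodes an ETS factor, had 16 (2.60 per 10 kb), and bun had 16 (1.74 per 10 kb). CHES-1-like was the densest of these at 6.06 per 10 kb, with 17 summits in a span of 27048 bp. Tlk, a protein kinase gene, had 15 and Pdp1, a bZIP factor gene, had 14, and next came rdx, Hr4 and tai with 11 each. The products of these 3 are a BTB adaptor of ubiquitin ligases, a nuclear receptor and a coactivator of the ecdysone receptor. Among genes with fewer summits, crp (9, or 3.57 per 10 kb) and Mnt (10, or 3.24 per 10 kb) were dense, and both encode bHLH leucine zipper proteins.

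Sites also lay close together. A cluster was a run of at least 3 summits with gaps of at most 5000 bp, and there were 214 clusters with 883 summits (27.5%, Wilson 95% interval 26.0 to 29.1). Of these, 111 clusters had 3 summits, 58 had 5 or more and 8 had 8 or more, the median length was 5313.5 bp, and 151 had a single nearest gene. Clustered regions were hardly stronger than the others in fold, with medians of 2.18 and 2.15, and their median -log10 q was 10.7 against 9.67. They lay inside genes more often, at 67.4% against 52.2%.

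The CHES-1-like cluster was the largest, with 18 summits over 19.3 kb at folds of 1.81 to 4.44 (X:7690864-7710132), and it filled most of the gene. The chinmo cluster had 12 summits over 24.2 kb, of which 8 lay outside the gene and beyond 500 bp of its ends, up to a fold of 3.60. Chinmo is a BTB zinc-finger factor of developmental timing. A cluster of 12 over 15.4 kb ran across CG5953, CG31816 and mtgo, with its peak, a fold of 4.35, at an end of CG31816. Eip75B held 2 separate clusters, of 11 summits over 12.4 kb and of 8 over 13.2 kb, with highest folds of 3.03 and 3.54. The foxo cluster had 9 summits over 13.1 kb, and its strongest, at 3.34, lay outside the gene. Foxo is the transcription factor restrained by insulin signalling. The last of the 8 were a cluster at COX7AL2 and CG31668, with 8 weak summits at folds of 1.63 to 2.41, and one of 8 that crossed CG9003, CG34228, CG13198, Roc2 and the trehalose transporter gene Tret1-1, at 1.58 to 2.63.

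**Figure D2:**
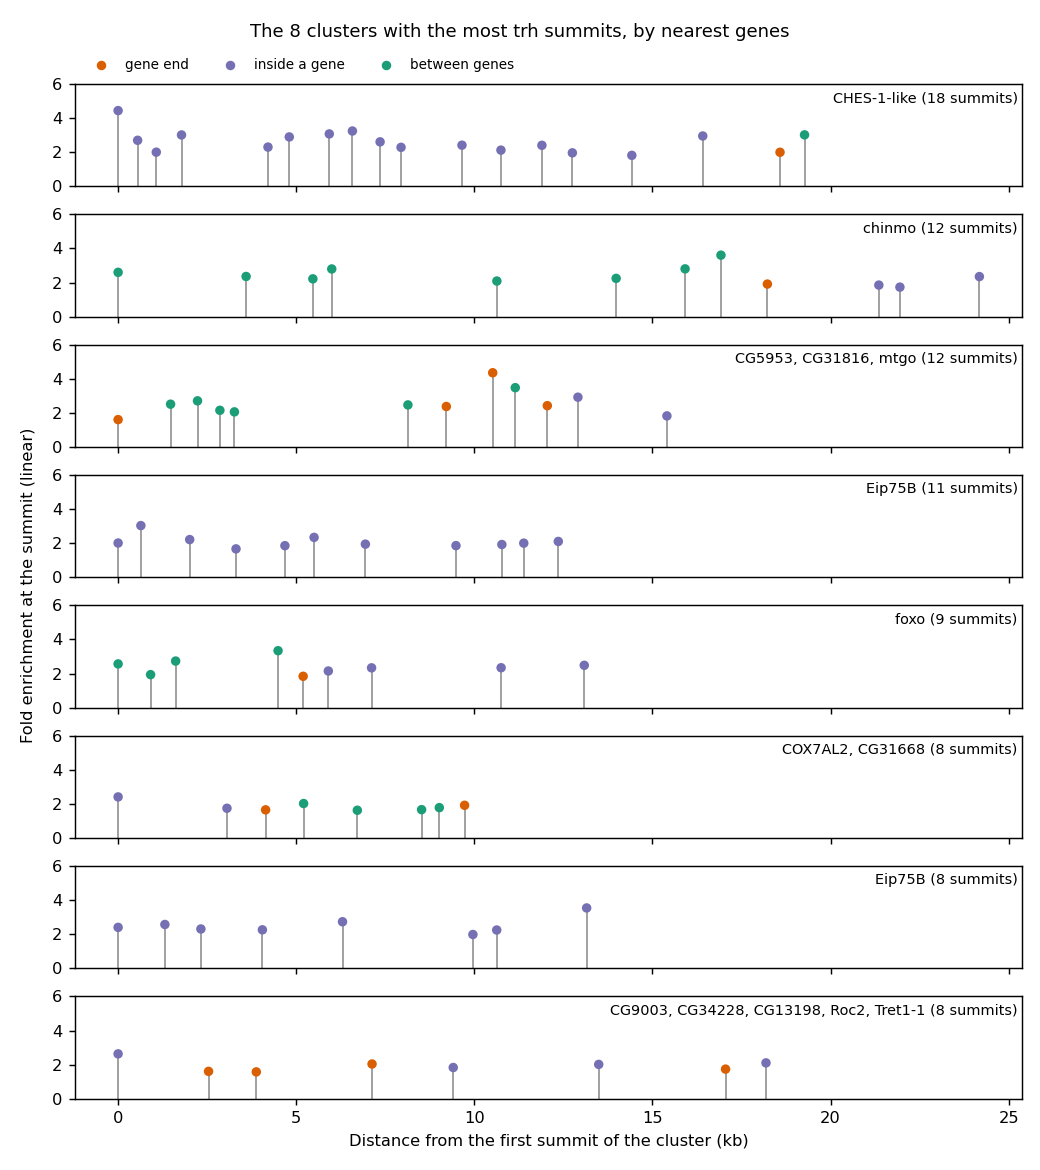
Each panel shows 1 of the 8 clusters with the most summits, with distance from the first summit in kb (x axis) and fold enrichment at each summit (y axis, linear), coloured by the place of the summit. The 18 CHES-1-like summits lie mostly inside the gene, while 8 of the 12 chinmo summits lie between genes.

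Genes of the cytoplasmic ribosome were often in the list, with weak folds. The ribosome joins a large and a small subunit, growing cells make many of them, and the series title places the transcription of these genes in the growth of secretory cells. Of 88 genes for its proteins, 26 (29.5%) had a summit at a gene end, against 8.32% of all genes. The large subunit had 14 of 50 (28.0%) and the small subunit 12 of 38 (31.6%). The genes are short, with median lengths of 1326 and 1376 bp, and counting the span added none. Among genes of like length, 1179 to 2163 bp, the gene-end share was 6.0%. The summits lay near the end, at a median of 61.5 bp.

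On the large subunit, RpL4 had the strongest region, at a fold of 2.48 with a -log10 q of 26.2. RpL12 and RpL39 are neighbours and share a summit at a fold of 2.46, 487 bp from the former and 84 bp from the latter. RpL38 (2.33) and RpL7 (2.29) followed, then RpL27, RpL35A, RpL31, RpL24, RpL9, RpL34a, RpL8 and RpL7A between 2.11 and 1.69, and last RpLP1 at 1.46. On the small subunit, RpS15Aa (2.00), RpS10b (2.00) and RpS6 (2.00) were close together, with RpS27A, RpS27, RpS12, RpS19a, RpS18, RpS28b, RpS3A and RpS16 from 1.86 down to 1.54. Over the 26 genes the median fold was 1.86, and 6 were at or above the list median of 2.16. By -log10 q the same genes stood higher, and 17 of the 26 were in the upper 50% of the list by that measure. In 11 of the 26 another protein-coding gene had the same summit in its window, as Ripalpha did for RpL7. Of the 26 genes, 19 had a gene-end summit in the btl list as well and 18 in the replicate 3 list (73.1% and 69.2%). Over all 1159 genes with a gene-end summit in the trh list the same shares were 72.9% and 78.7%, the first close to that of the 26 genes and the second above it. Over all 13922 genes, with or without a trh summit, they were 26.7% and 36.1%.

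The rest of the translation machinery was uneven. Of 53 translation factor genes, with a median length of 1969 bp, 9 (17.0%) had a gene-end summit, beside 6.0% among genes of like length. The elongation factor gene eEF1beta led at a fold of 2.79, followed by the initiation factor gene eIF2beta at 2.62. Then came eRF1, the release factor gene, at 2.16 and eIF3i at 2.04. The aminoacyl-tRNA synthetases, which charge tRNAs, had 2 of 18 (11.1%), beside 8.51% among genes of like length. MetRS stood at 3.23 with a -log10 q of 29.1, in a window shared with CG15099. Mitochondrial ribosomal proteins had 3 of 73 (4.11%), with mRpS26 the highest at 2.25 and 469 bp from its gene. Proteasome subunits had 1 of 48 (2.08%), Rpn5 at 1.92, and oxidative phosphorylation subunits 3 of 84 (3.57%). The general transcription machinery had 1 of 50 (2.00%), MED4 at 1.97. These last 4 groups were below the 8.32% of all genes, but their genes are short, with median lengths of 909, 1382, 1097 and 1390 bp. Among the shortest genes, of 168 to 1178 bp, the gene-end share was 3.19%, so the mitochondrial ribosomal and oxidative phosphorylation shares were not below that of genes of like length. Another coding gene shared the window for all 3 mitochondrial ribosomal genes, 2 of the 3 oxidative phosphorylation genes, Rpn5 and MED4. Of the 5 listed factors known at ribosomal protein promoters, none had a gene-end summit, and Trf2 held 1 inside its span at a fold of 2.08.

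Transfer RNA genes were a further part of this machinery in the list. Of 290 tRNA genes, 44 (15.2%) had a summit within 500 bp of an end, beside 6.35% over all non-coding genes. Because tRNA genes sit in groups, these 44 genes rest on 28 summits, 14 of which had 2 or more tRNA genes in the window. For 19 of the 28 no protein-coding gene end was within 500 bp. Their folds ran from 1.58 to 3.56 with a median of 2.18. The strongest was at tRNA:Thr-AGT-2-1 (3.56), followed by tRNA:Glu-TTC-1-5 (3.15), tRNA:Thr-TGT-1-1 (2.97) and tRNA:Arg-ACG-1-3 (2.93). The last lies 508 bp beyond EcR. Of the 28 regions, 21 overlapped the btl list, 15 the replicate 3 list and 5 neither, and tRNA:Thr-AGT-2-1 was among the 5.

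Other non-coding genes were reached in small numbers. Of 1959 long non-coding RNA genes, 121 (6.18%) had a summit within 500 bp of an end. The strongest was at lncRNA:CR45517, at a fold of 4.14, in a window shared with the coding gene CG16756, and lncRNA:CR31386 stood at 3.46 with no coding gene end in the window. Of 260 microRNA genes, 12 (4.62%) had one, with mir-1002 (2.51), mir-317 (2.15), mir-4962 (2.08) and mir-4985 (2.04) the highest. The mir-317 and mir-34 summits both belong to a cluster of 7 summits over 13.3 kb at Alp13 and Fmr1, where folds ran from 1.72 to 2.99. Of 269 small nucleolar RNA genes, 5 (1.86%) had one. The highest, snoRNA:185 at 3.15, shares its summit with tRNA:Glu-TTC-1-5, and 2 others lie beside the ribosomal protein genes RpS12 and RpS6, in the same windows.

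**Figure D3:**
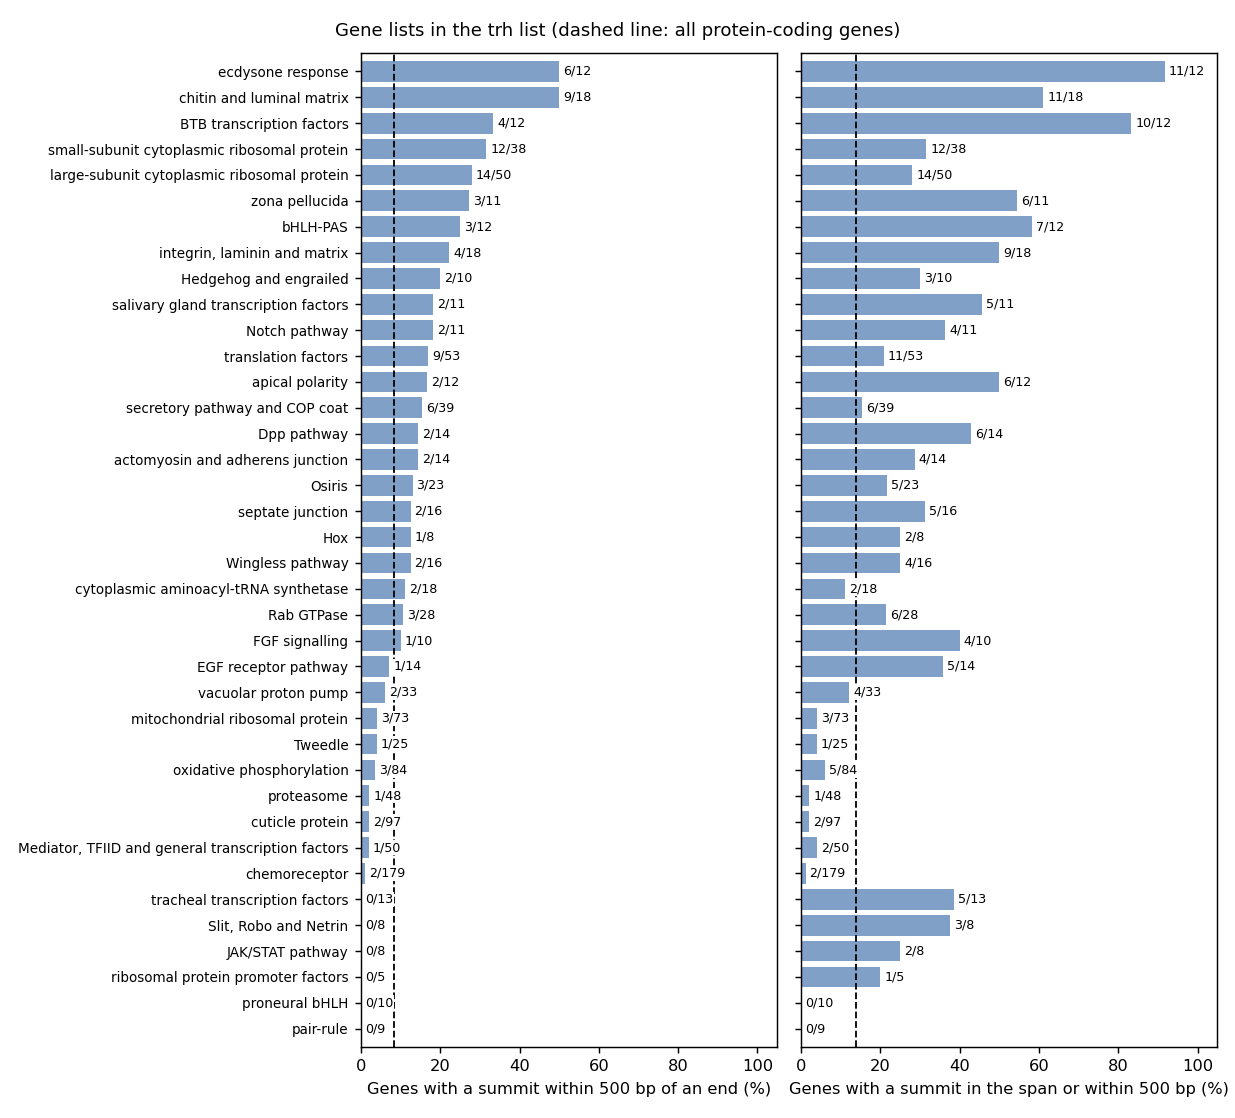
Share of the genes of each list with a summit within 500 bp of an end (left) and in the span or within 500 bp of it (right), with counts beside the bars and dashed lines at the shares over all protein-coding genes, 8.32% and 13.9%. Ecdysone response and chitin genes have the highest gene-end shares, at 50.0% each, and the span shares of long genes exceed their gene-end shares.

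Secretory genes were nearer the background than ribosomal ones. Genes of the secretory pathway, with coat, translocation and exocyst genes among them, had 6 of 39 (15.4%) at a gene end, with folds from 1.74 to 2.64. Their median length was 2591 bp, and among genes of 2164 to 4999 bp the gene-end share was 8.51%. Sec10, an exocyst subunit gene, led at 2.64, then came Srp54 of the signal recognition particle at 2.31, the COPII coat gene Sec24AB at 2.16 and the exocyst gene Sec3 at 2.10. For 5 of the 6 another coding gene shared the window. Rab GTPases, which direct vesicle traffic, had 3 of 28 (10.7%), namely Rab40 (2.09), Rab32 (2.02) and RabX6 (1.87), and Rab11, which serves recycling endosomes, held a summit inside its span at 2.15. The vacuolar proton pump had 2 of 33 (6.06%), Vha16-4 at 2.34 and Vha68-2 at 2.07. The Rab and pump lists have median lengths of 3062 and 1732 bp. Gene-end shares among genes of like length were 8.51% and 6.0%.

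Genes of chitin and the luminal matrix gave a larger share. The tracheal lumen is filled with a chitin matrix that sets tube length and diameter and is later cleared. Of 18 chitin and luminal matrix genes, 9 (50.0%) had a gene-end summit and 11 (61.1%) a summit in the span, with a median length of 6652 bp. Among all genes of at least 5000 bp, the shares were 15.6% and 35.7%. The chitinase gene Cht5 had the highest fold, 3.22, 104 bp from its end, and Cda4, a chitin deacetylase gene, had 2.86. Gasp, whose product binds chitin, had 2.16 at its end and 3.10 inside the gene, and reb, needed for chitin deposition, had 2.08.

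The chitin synthase gene kkv, the deacetylase gene serp, knk, obst-B and Cht7 were weaker, between 1.72 and 1.97. The knk summit was also in the window of tws, and that of Cht7 in the window of PAN3. The genes mmy and exp had summits only inside the span, at 1.91 and 2.65. The other 7 listed genes had none, among them verm, the partner of serp in tube length, and rtv. The median gene-end fold of the 9 genes was 1.97, against 2.04 over all 1159 genes with a gene-end summit, so their share was high and their strength was not. Of the 18 listed genes, 12 (66.7%) had a gene-end summit in the btl list and 14 (77.8%) in the replicate 3 list. Over all protein-coding genes these shares were 26.7% and 36.1%.

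Other matrix and junction genes followed with smaller counts. Zona pellucida proteins, which tie the apical surface to the matrix, had 3 of 11 (27.3%) at a gene end, dpy (1.85), dyl (1.84) and pio (1.42), and pio reached 3.83 inside its span. With the span counted the number was 6 (54.5%). Among genes at least as long as their median the shares were 17.7% at gene ends and 50.3% in the span. Integrin, laminin and matrix genes had 4 of 18 (22.2%), with Timp (2.24), trol (2.06), LanA (1.72) and LanB2 (1.66). Apical polarity genes had 2 of 12 (16.7%), Moe at 1.77 and crb at 1.55, beside 18.4% among genes at least as long as their median. Moe, which encodes moesin, held 6 summits in its span with the strongest at 3.02. Septate junction genes had 2 of 16 (12.5%), vari at 2.29 and Gli at 1.55. Actomyosin and adherens junction genes had 2 of 14 (14.3%), where p120ctn, whose product binds E-cadherin, was high at 3.48 and Act5C was 1.64. The medians of the integrin, septate junction and actomyosin lists lie above 5000 bp, and among genes of at least that length the gene-end share was 15.6%.

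Genes of the outer cuticle had few summits at their ends. Cuticle proteins had 2 of 97 (2.06%), Cpr62Ba at 3.28 and Lcp9 at 1.75, and Tweedle genes 1 of 25 (4.00%), Twdlbeta at 2.66. Both lists are of short genes, with medians of 872 and 1088 bp, for which the share over all genes of like length was 3.19%. Osiris genes, of a median length of 1753 bp, had 3 of 23 (13.0%), beside 6.0% among genes of like length, with Osi18 at 2.62, Osi13 at 2.48 and Osi19 at 2.22. Chemoreceptor genes, which serve sensory neurons, had 2 of 179 (1.12%), Ir31a (1.86) and Ir68b (1.54), and both windows are shared, that of Ir31a with RpS27A.

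**Figure D4:**
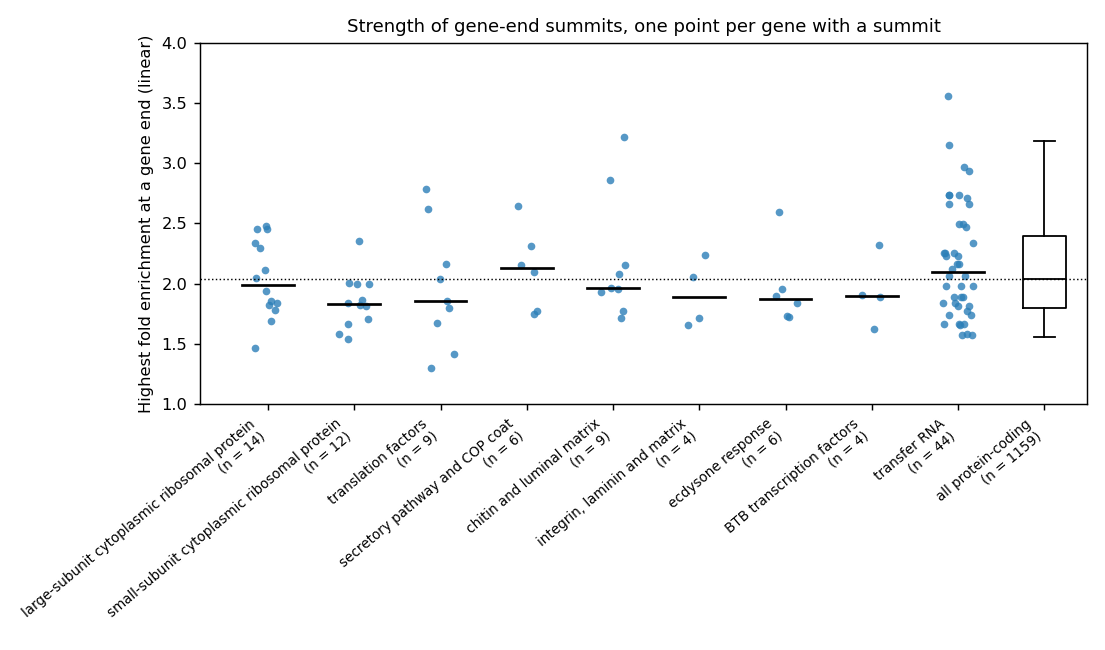
Highest fold enrichment at a gene end (y axis, linear) for each gene with a gene-end summit in 8 protein-coding lists and for tRNA genes, with list medians as bars. The box shows the quartiles and median (2.04, dotted line) of all 1159 protein-coding genes, with whiskers at the percentiles 5 and 95 and no outliers drawn. Most list medians lie at or below 2.04, with ribosomal protein genes between 1.46 and 2.48.

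Genes for transcription factors of the trachea and salivary gland held summits inside the gene more than at its ends, as other long genes did. Of 13 tracheal transcription factor genes none had a gene-end summit and 5 (38.5%) held one in the span. Among all genes at least as long as their median of 14764 bp, the shares were 17.8% and 50.0%. The 5 tracheal genes were pnt (2.77), sima (2.71), trh (2.46), rib (1.87) and Blimp-1 (1.82), with the highest fold of each. The rib and trh genes held 2 summits each in the span or within 500 bp of it, while trh was the nearest gene to 7 summits. Of 11 salivary gland factors, Scr (2.33) and CrebA (1.87) had gene-end summits (18.2%) and 5 (45.5%) had one in the span. Among genes at least as long as their median the shares were 16.0% and 37.2%. CrebA, the factor that raises secretory gene expression, held 6 in its span with the strongest at 3.14. The Scr summit, 78 bp from that Hox gene, was also in the window of tRNA:Lys-TTT-2-4. FGF signalling genes, which guide branch outgrowth, had 4 of 10 in the span and 1 at a gene end, the FGF adaptor gene stumps at 2.54. That gene-end summit was also in the window of another coding gene. Among genes at least as long as the list median of 27323 bp, the shares were 53.3% in the span and 17.8% at gene ends. The highest folds were at stumps (3.11), the receptor gene btl (3.10) and sfl (3.07).

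Of the gene lists, that of the ecdysone response held the most summits. Ecdysone, the steroid hormone of insect development, acts through the receptor EcR and its partner Usp on a cascade of further receptors and factors. Of 12 such genes, 11 (91.7%) held a summit in the span and 6 (50.0%) at a gene end, with 94 summits in all. The exception was Eip93F. The genes are long, at a median of 55678 bp, and among the 261 genes at least as long the shares were 60.9% and 16.9%. At gene ends, Eip74EF had a fold of 2.59 with a -log10 q of 27.1, ftz-f1 had 1.95, usp 1.9 and Hr38 1.84. The usp summit was also in the windows of Actn, CG4313 and CG4325, and that of Hr4 in the window of CG3587. Inside the span the highest folds were higher, at 3.99 for ftz-f1, 3.61 for EcR, 3.60 for Eip74EF and 3.54 for Eip75B. The 94 summits were concentrated in a few genes, with 28 in Eip75B, 18 in ftz-f1 and 16 in Eip74EF. EcR held 8 summits, Hr4 11 and Hr3 5, while Hr39 held 2 and br and Hr38 held 1 each.

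Of 12 BTB transcription factor genes, the family of rib, 10 (83.3%) held a summit in the span and 4 (33.3%) at a gene end, with 35 summits. Among the 296 genes at least as long as their median of 51914 bp the shares were 60.1% in the span and 17.2% at gene ends. Gene-end folds were 2.32 for psq, 1.91 for chinmo, 1.89 for ken and 1.62 for bab2, and inside the span bab1 reached 3.70. The genes ab and lov had none. Of 12 bHLH-PAS genes, the family of trh, 7 (58.3%) held a summit in the span and 3 (25.0%) at a gene end. Among genes at least as long as their median the shares were 52.6% and 18.6%. At gene ends stood gce (2.69), Met (2.01), the other juvenile hormone receptor gene, and cyc (2.01), while tai reached 4.31 inside its span. The Met and cyc summits were each also in the window of another coding gene.

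Lists of the large signalling pathways and of segmentation are small, of 8 to 16 genes, and had at most 2 genes each with a gene-end summit. EGF receptor genes had 1 of 14 (7.14%, Krn at 1.79) and Dpp genes 2 of 14 (14.3%, sog at 3.04 and brk at 1.45). Notch genes had 2 of 11 (18.2%, fng at 1.87 and kuz at 1.66). Wingless genes had 2 of 16 (12.5%, sgg at 1.84 and fz at 1.53) and Hedgehog genes 2 of 10 (20.0%, Su(fu) at 2.38 and ptc at 1.42). In their spans the counts were 5 of 14 (35.7%), 6 of 14 (42.9%), 4 of 11 (36.4%), 4 of 16 (25.0%) and 3 of 10. Among all genes at least as long as the median of each list, in the same order, the span shares were 42.5%, 37.3%, 53.7%, 50.9% and 38.1%. The gene-end shares among those genes were 17.3%, 16.0%, 18.7%, 17.7% and 16.3%. For Krn, and for 1 gene each of the Wingless and Hedgehog lists, another coding gene shared the window of the gene-end summit. The span of shn held 10 summits, that of fz 9 and that of mam, a Notch coactivator, 7. No gene-end summit was found at 8 JAK/STAT genes, 8 Slit, Robo and Netrin genes, 9 pair-rule genes or 10 proneural genes, and the last 2 groups had none in the span either. In the first 2 groups, 2 (25.0%) and 3 (37.5%) genes held one in the span, beside 42.0% and 58.4% among genes at least as long as their medians. The gene-end shares among those longer genes were 17.1% and 18.8%. The last 2 groups have median lengths of 2533 and 1330 bp. Among genes of like length, gene-end shares were 8.51% and 6.0%, and span shares 10.4% and 6.23%. In lists of 8 to 10 genes, gene-end shares of this size come to few genes. A site outside the span is not in these counts. The pair-rule gene hry was the nearest gene to 6 summits, all between genes, of which 5 formed a cluster over 8.1 kb at folds of 1.96 to 2.92, and ftz was nearest to 1. Of 8 Hox genes only Scr had a gene-end summit (12.5%), and Antp held 1 in its span at 2.58, so that 2 (25.0%) were reached in the span. Among genes at least as long as their median the shares were 18.3% at gene ends and 53.9% in the span.

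How far strong trh regions recurred in the btl embryos depended on the list compared and on the measure used to rank them. Of the 3210 regions, 2415 overlapped the btl list by at least 1 bp, 2585 the replicate 3 list and 2191 both. Replicate 3 was made with another library kit at another centre, so it differs from the trh list in driver, kit and centre together. Ranked by fold in 10 bins of 321, the replicate 3 share was 99.4% (97.8 to 99.8) for the weakest regions and 65.4% (60.1 to 70.4) for the strongest. Ranked by -log10 q, it was 82.6% (78.0 to 86.3) in the weakest bin, 73.8% (68.8 to 78.3) in the third and 87.5% (83.5 to 90.7) in the strongest. For the btl list the shares by fold were 74.8% (69.7 to 79.2) in the weakest bin and 72.0% (66.8 to 76.6) in the strongest. Between these they fell at each step, from 82.6% (78.0 to 86.3) in bin 2, counted from the weakest, to 67.6% (62.3 to 72.5) in bin 9. The shares of that list by -log10 q were 72.9% (67.8 to 77.5) and 84.4% (80.1 to 88.0) in the outermost bins. The larger fall in the fold order was thus in the replicate 3 list, with a smaller one in the btl list. In the order by -log10 q the strongest bin had the highest share in both lists.

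At the level of single loci, 14 of the top 15 by fold were in the btl list and 11 in replicate 3, with bru2 the exception in the former. Of the top 15 by -log10 q, 13 and 10 were. The Pde1c region was in neither, and the COX7AL2 region stood at the percentile 0.679 of fold in the btl list and at 99.9 in replicate 3. Clustered regions were found in the btl list in 77.7% and in replicate 3 in 89.1%, against 74.3% and 77.3% of the others. The cluster at Hacd1, Rh5 and Wdr81 had 7 summits, of which none was in the btl list and 7 were in replicate 3.

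**Figure D5:**
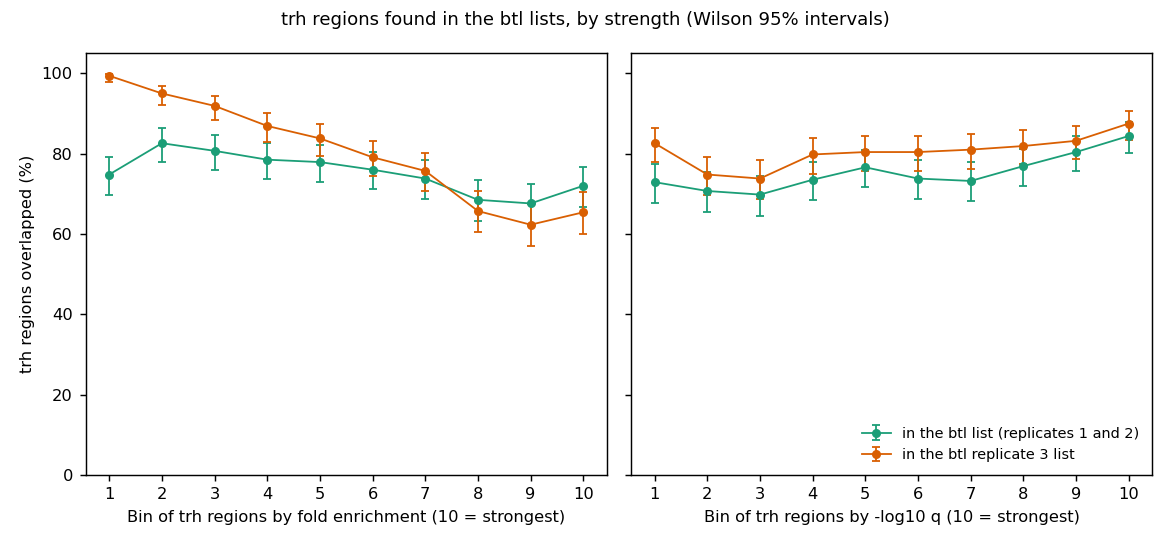
Share of trh regions that overlap the btl list or the btl replicate 3 list (y axis, with Wilson 95% intervals) in 10 bins of 321 regions from weakest to strongest, ranked by fold (left) and by -log10 q (right). Ranked by fold the replicate 3 share falls from 99.4% to 65.4%. The btl share is 74.8% in the weakest bin, 82.6% in bin 2, 67.6% in bin 9 and 72.0% in the strongest. Ranked by -log10 q the replicate 3 and btl shares end at 87.5% and 84.4%.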

How the data were processed

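The deposited files are peak lists in narrowPeak layout without headers. The submitters' processing notes name MACS2 2.2.4, Bowtie2 2.3.4.3 and the dm6 build, with 50 bp single-end reads per the labels' protocols. Per the labels, the authors made the trh list from replicates 1 and 2 at an irreproducible discovery rate of 0.1. By that layout, the authors' ratio column is a linear fold enrichment, their -log10 columns are p and q, their score column is a capped scale of the discovery rate that ran up to 1000, and the authors' other column is the offset of the summit. Whether the fold and q came from pooled reads is not given in the sources used here. A test for whole read pileups behind the values solved 89 regions (2.77%) within 0.001 of -log10 p, so no counts were used. The highest-confidence list was not used.

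Summits were compared with 13922 protein-coding genes of 6 arms in the RefSeq Release 6 table, which has no strand, with Python 3.11.15, pandas 2.3.3 and numpy 2.4.6. The position functions were tested on simulated data. The 41 gene lists were fixed by symbol, with genes named "-like" left out of ribosomal proteins. Members and lists were chosen with earlier results of these data known. Named genes are those nearest to the 15 strongest regions by fold and by -log10 q, those of the 8 largest clusters, up to 4 per list by gene-end fold, ribosomal protein genes with a summit, rib, trh and btl; other genes were named after their values were seen. A gene that this rule names is not reported here. No test across samples was possible, because the list has no value per sample. Upstream shares, exons, sequences and motifs were not analysed here.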

Additional observations from a re-analysis of the deposited data

How the results depend on the processing

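Of 47 alternatives to 8 results, 19 moved the result and 28 did not, where a count was taken as moved beyond a factor of 1.5 and the gene-end share and rank correlation outside their 95% intervals. Keeping the upper 50% of regions by fold left 6 ribosomal protein genes, 3 chitin genes, 21 tRNA genes, 473 genes in all and 71 clusters, with 7 ecdysone genes in the span and a gene-end share of 23.2%. Keeping the upper 50% by -log10 q left 17 ribosomal protein genes, 5 chitin genes, 25 tRNA genes, 611 genes and 72 clusters. A score of at least 540 left 139 clusters and a rank correlation of 0.533. The gene-end share was 24.1% with a window of 250 bp and 38.2% with 1000 bp, and the latter window gave 1626 genes and 57 tRNA genes. Counting the span in place of the ends gave 1932 genes, ecdysone genes at gene ends only numbered 6, and gaps of 2500 and 10000 bp gave 137 and 312 clusters. The threshold alternatives hold fewer regions by construction. Region midpoints in place of summits moved none of the results they were run on. The alternatives for chitin, tRNA and ecdysone genes were chosen after seeing the data.

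No paired analysis was possible because each driver has 1 joint list of replicates 1 and 2 with no value for either, and for the same reason leaving out a replicate was not possible. The planned share of summits upstream of gene starts was not run, since strand was not used here. Read depth is unknown, and a gene without a region was not detected at that depth.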

Other observations

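Of the 3210 regions, 401 (12.5%) overlapped neither list of the btl driver. Their median fold was 2.51 and their median -log10 q was 9.17, against 2.16 and 9.95 in the whole trh list. The strongest by fold lay inside DIP-kappa (4.15), gce (4.04), CG4629 (4.02) and CG6688 (3.94), and 1085 bp from net (3.73).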
